A study of Mus musculus with 12 samples.

Results

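The 32 genes described here are 21 that mark astrocytes (identity genes) and 11 that astrocytes are known to switch on after injury (reactivity genes), taken by symbol from a table of 55901 genes. All 32 were in the table. The values are FPKM, fragments per kilobase of transcript scaled to the mapped fragments of a library, from RNA-seq of neurons cultured from the cortex of newborn C57BL/6J mice and treated with arabinosylcytosine on day 1 to hold back dividing glia. The 3 conditions had 4 libraries each: Control cultures without injury, Trauma cultures 24 h after a scratch, and Trauma+TGF-β1 cultures (labelled Tra_TGF) 24 h after a scratch with 10 ng/mL TGF-β1 added. All 3 groups share the strain and the arabinosylcytosine. The scratch is a mechanical injury of a dish, with no blood and no immune cells from outside, and nothing in the sources used here says which libraries came from separate mice or dishes, so p-values measure the spread between these libraries.

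Astrocytes take up glutamate and turn it into glutamine, buffer potassium and water at their endfeet, couple to each other through gap junctions, and feed neurons with products of their own metabolism. After injury they become reactive: they build up intermediate filaments and secrete acute-phase proteins, protease inhibitors and matrix. Gfap, counted here with the identity genes, encodes one of these filaments. Cytokines that signal through gp130 and STAT3 are among the known triggers, and TGF-β1 signals through SMAD2 and SMAD3. Several of the 32 genes are not private to astrocytes. Vim and Nes also mark progenitors, Vim also microglia and fibroblasts, and Fabp7 and Sox9 also radial glia and progenitors.

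The cultures were neuronal by their markers, and transcripts of the listed astrocyte genes were well represented beside the neuronal ones. Which cells made them cannot be told from RNA of a whole culture. Tubb3, a tubulin of neurons, ran from 717 to 993 FPKM over the 12 libraries. Among the members, averaged over the 12 libraries, Sparcl1 was at 189, Fabp7 at 159, Glul at 107 and Gfap at 77.3 FPKM. At the other end Osmr averaged 0.856, Slc7a10 0.649 and Ptx3 0.501 FPKM. Gene reads per library numbered 15052486 to 17381671. The Control library with number 1 stood apart: on the first principal component of all tested genes it was at −12.1 and the other Control libraries between 25.2 and 30.0, and on the second it was at 59.0 and the other 11 libraries between −21.9 and 8.70. It also had 2.97% of its reads on mitochondrial genes, against 2.12% to 2.36% in the other Control libraries.

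Genes with a mean of at least 0.5 FPKM were tested, which kept 29 of the 32 members. Gjb6, a connexin of astrocyte gap junctions, was below it, with 3 to 18 reads and 0.0729 to 0.420 FPKM per library. Cp, which encodes ceruloplasmin, ran from 0.193 to 0.374 FPKM in Control, 0.390 to 0.572 in Trauma, and with TGF-β1 from 0.220 to 0.563, so that the Control and Trauma libraries did not overlap. Its span overlaps that of Hps3 on the other strand (1.96 FPKM), and whether their exons share reads was not tested. Steap4, a metal reductase of inflamed tissue, had 0 to 6 reads per library.

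Promoters from RefSeq (GRCm38.p6), 300 bases from 250 before to 50 after the start, were found for 27 of the 32 members, 32 promoters in all. They were searched on both strands for the letters TTCNNNGAA, the core of STAT sites, TGANTCA, the core of AP-1 sites with any middle base, and GTCTAGAC, the palindromic SMAD site. Each of these reads the same on both strands. TTCNNNGAA was in 6 of the 32, those of Gfap, Slc1a3, Aldoc, Ntsr2, Acsbg1 and Steap4, and in 8.30% of 32851 promoters. TGANTCA was in 3 of the 32, those of Gja1, Osmr and Cp, and in 7.81% of all. AP-1 sites usually have C or G in the middle. The match was TGAGTCA in Gja1 but TGATTCA in Osmr and Cp. GTCTAGAC was in 0 of the 32 and in 0.213% of all. None of the matches in the members overlapped each other. Of these genes, Aqp4, Sox9, Atp1b2, Sparcl1 and Cd109 had no entry. Printed here, with the matching letters in capitals, are a filament gene and a glutamate transporter with TTCNNNGAA, and a gap junction gene and a cytokine receptor with TGANTCA, which the comparisons return to. Gfap lies on the minus strand at chr11:102897151-102897450, Slc1a3 on the minus strand at chr15:8710758-8711057, Gja1 on the plus strand at chr10:56377050-56377349 and Osmr on the minus strand at chr15:6874264-6874563. A match is a run of letters and not a measured site.
Gfap: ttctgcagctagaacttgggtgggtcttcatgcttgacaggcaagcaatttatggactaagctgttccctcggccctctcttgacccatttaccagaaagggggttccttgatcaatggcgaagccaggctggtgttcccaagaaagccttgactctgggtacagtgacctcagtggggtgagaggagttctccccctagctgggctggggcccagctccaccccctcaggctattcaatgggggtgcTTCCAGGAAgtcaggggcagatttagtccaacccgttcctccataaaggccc
Slc1a3: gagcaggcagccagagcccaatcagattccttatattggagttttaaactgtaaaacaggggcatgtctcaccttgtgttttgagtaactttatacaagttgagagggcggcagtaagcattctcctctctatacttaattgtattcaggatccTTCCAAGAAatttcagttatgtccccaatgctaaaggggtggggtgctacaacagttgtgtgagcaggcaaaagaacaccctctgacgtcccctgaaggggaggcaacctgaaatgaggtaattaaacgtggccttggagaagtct
Gja1: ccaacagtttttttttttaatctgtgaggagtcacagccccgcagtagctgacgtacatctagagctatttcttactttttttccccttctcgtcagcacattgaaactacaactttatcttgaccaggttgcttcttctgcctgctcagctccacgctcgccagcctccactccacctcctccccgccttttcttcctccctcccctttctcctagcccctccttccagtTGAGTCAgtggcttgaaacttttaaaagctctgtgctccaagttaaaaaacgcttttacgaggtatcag
Osmr: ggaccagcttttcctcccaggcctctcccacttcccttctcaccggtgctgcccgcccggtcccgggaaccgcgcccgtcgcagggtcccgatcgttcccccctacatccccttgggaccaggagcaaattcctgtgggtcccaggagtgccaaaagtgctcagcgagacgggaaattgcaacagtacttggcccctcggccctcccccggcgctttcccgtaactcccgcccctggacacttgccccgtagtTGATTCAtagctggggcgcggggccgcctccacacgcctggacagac

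Trauma was first compared with Control, which asks how the scratch alone moved these genes. Both sets were higher. Of the 20 tested identity genes, 14 rose, 0 fell and 6 did not pass the test (limma on log2 FPKM, adjusted p of at most 0.05), while 3.5% of all 15016 tested genes were called higher and 2.32% lower. Of the 9 tested reactivity genes, 7 rose, 0 fell and 2 did not pass. At an unadjusted p under 0.05, 18 identity genes were higher and 0 lower, and 7 reactivity genes were higher and 0 lower, where 10.1% of all genes were higher and 9.3% lower. With voom on the recovered reads 14 and 7 were called higher and 0 lower in either set. The 4 Trauma libraries lay above all Control libraries for 16 identity and 7 reactivity genes, and 12.8% of all genes did not overlap between these groups. The median log2 fold change was 0.36 for identity and 1.09 for reactivity genes, and −0.0025 for all genes tested. In RNA of a whole culture, fewer or more astrocytes and less or more RNA per astrocyte cannot be told apart.

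**Figure D1:**
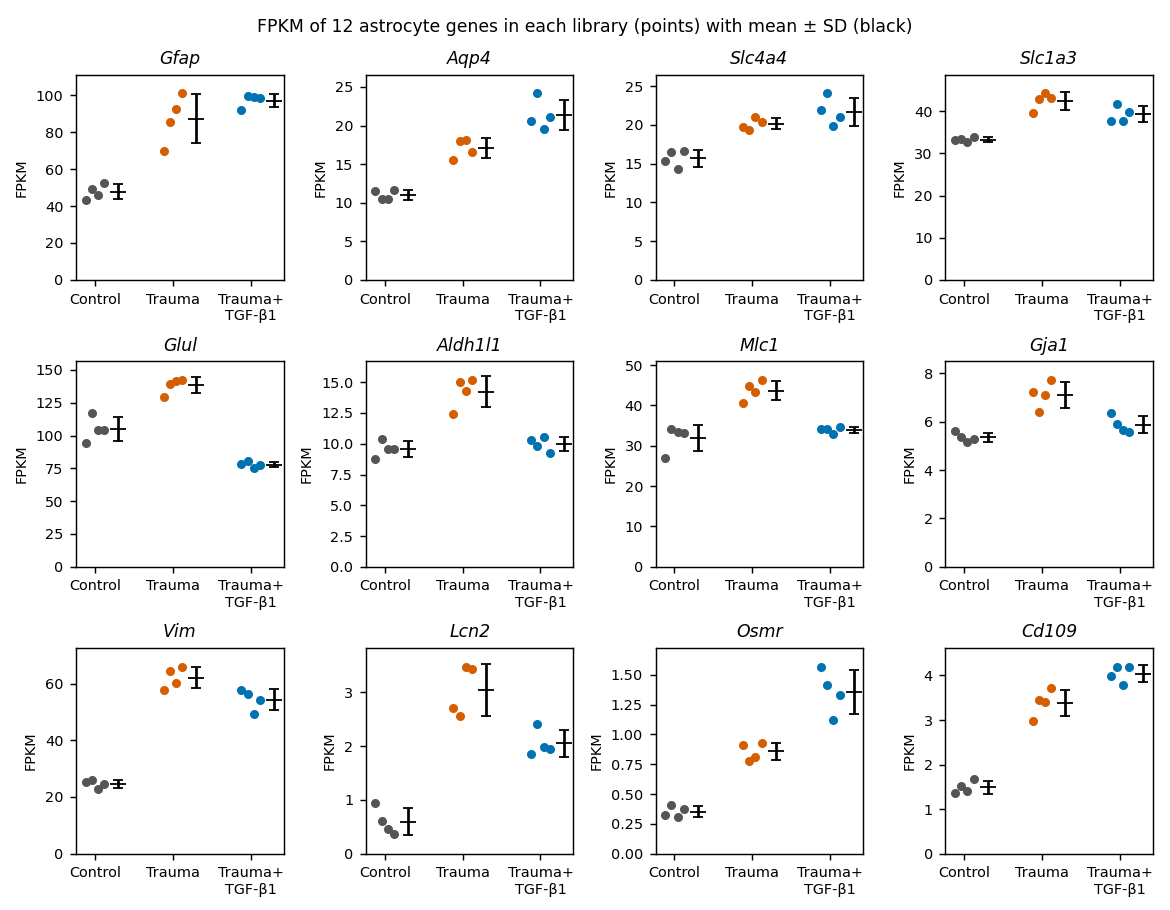
FPKM of 12 of the astrocyte genes (vertical axes, from 0) in each library of Control, Trauma and Trauma+TGF-β1 (points, in the order of their replicate numbers), with the mean and SD of 4 libraries in black. Gfap, Vim and Lcn2 are higher in every scratched library than in any Control library, and Glul is higher in Trauma and lower in Trauma+TGF-β1 than in Control.

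Gfap, the glial intermediate filament by which astrocytes are usually stained, had 43.1, 49.0, 45.9 and 52.6 FPKM in the Control libraries and 69.9, 85.7, 92.4 and 101 in Trauma. All Trauma libraries were above all Control libraries, and Trauma varied more (87.3 ± 13.2 against 47.7 ± 4.10, SD, n = 4). The log2 fold change was 0.87 (standard error 0.097, limma's adjusted p = 0.00033), the largest of the identity genes. Aqp4, the water channel of the endfeet, went from 11.6, 10.5, 10.5 and 11.6 FPKM to 15.5, 18.0, 18.2 and 16.6. Its log2 fold change was 0.63 (standard error 0.073, limma's adjusted p = 0.00040). Other genes for transport across the membrane rose by less: Slc4a4, a sodium bicarbonate cotransporter, by 0.37 (limma's adjusted p = 0.0056), Atp1b2, a subunit of the sodium pump, by 0.24 (limma's adjusted p = 0.0034), and Mlc1, a membrane protein of the endfeet, by 0.47 (limma's adjusted p = 0.0021) on the log2 scale. Slc39a12, a zinc importer, had 3.86 to 4.89 FPKM in Control and 4.08 to 5.21 in Trauma and did not pass (log2 fold change 0.16, 95% interval −0.082 to 0.40).

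All 3 genes of glutamate handling rose. Slc1a3, the glutamate transporter GLAST whose promoter holds TTCNNNGAA, had 33.1, 33.4, 32.7 and 34.0 FPKM in Control and 39.5, 42.9, 44.3 and 43.3 in Trauma. That is a log2 fold change of 0.36 (limma's adjusted p = 0.00062) between groups that do not overlap. Glul, the glutamine synthetase, had 94.2, 117, 104 and 104 FPKM in Control and 130, 140, 142 and 142 in Trauma. Its log2 fold change was 0.41 (standard error 0.056, limma's adjusted p = 0.0012). Slc1a2, the glutamate transporter GLT-1, went from 28.7 to 30.7 FPKM in Control to 32.4 to 37.6 in Trauma, and its call was close to the threshold (log2 fold change 0.22, limma's adjusted p = 0.042). It was lost, with limma's adjusted p between 0.054 and 0.11, when any 1 of 9 libraries was left out: each of the 4 Control libraries, Trauma 2, 3 or 4, or Trauma+TGF-β1 1 or 4. It was also lost with no filter, quantile normalization, the fit of 2 groups and eBayes without a trend (limma's adjusted p = 0.053 to 0.086).

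Among the metabolic genes, Aldh1l1, a folate enzyme and the most used pan-astrocyte marker, had 8.78, 10.4, 9.58 and 9.55 FPKM in Control and 12.4, 15.0, 14.3 and 15.2 in Trauma. The groups did not overlap (log2 fold change 0.57, standard error 0.073, limma's adjusted p = 0.00077). Fabp7, a fatty acid binding protein, rose by 0.45 (limma's adjusted p = 0.0046) and Acsbg1, an acyl-CoA synthetase, by 0.36 (limma's adjusted p = 0.00066) on the log2 scale. Aldoc, an aldolase of glycolysis, ran from 73.3 to 92.4 FPKM in Control and 85.6 to 104 in Trauma, overlapped and did not pass (log2 fold change 0.20, limma's adjusted p = 0.18). Gja1, the connexin 43 of gap junctions whose promoter holds TGANTCA, had 5.60, 5.39, 5.16 and 5.29 FPKM in Control and 7.22, 6.41, 7.09 and 7.73 in Trauma (log2 fold change 0.41, limma's adjusted p = 0.0031).

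Of the regulators and receptors, Sox9, a transcription factor of gliogenesis, rose by 0.40 on the log2 scale (limma's adjusted p = 0.026), from 5.26 to 6.67 FPKM in Control to 6.95 to 8.50 in Trauma. Without Control 3 or 4 or Trauma 2 or 4 its adjusted p in limma was between 0.070 and 0.085, and it was 0.055 with no filter and 0.063 in the fit of 2 groups. Fgfr3, a fibroblast growth factor receptor, had 4.98 to 7.06 FPKM in Control and 7.17 to 7.86 in Trauma (log2 fold change 0.35, limma's adjusted p = 0.032). Its adjusted p in limma was between 0.050 and 0.097, above the threshold, without Control 1, 2 or 4 or any 1 of the 4 Trauma libraries, 0.067 with no filter and 0.093 in the fit of 2 groups. Ntsr2, a neurotensin receptor, was at 1.96 to 2.56 against 2.51 to 3.12 FPKM, with overlap (log2 fold change 0.27, limma's adjusted p = 0.22). Of the secreted proteins, Sparcl1, a matrix protein that promotes synapses, had a log2 fold change of 0.098 (limma's adjusted p = 0.20). S100b, a calcium binding protein, had 12 to 42 reads per library and a log2 fold change of 0.66 (95% interval 0.20 to 1.12, limma's adjusted p = 0.096). Its span overlaps that of Dip2a on the other strand (14.5 FPKM). The span of Slc7a10, an amino acid exchanger with 0.369 to 0.825 FPKM, overlaps that of Lrp3 (33.2 FPKM). Whether the exons of either pair share reads was not tested. Slc7a10 had a log2 fold change of 0.30 (95% interval −0.24 to 0.85).

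Of the reactivity genes, Vim, the intermediate filament vimentin, had 25.3, 25.9, 22.7 and 24.6 FPKM in Control and 57.7, 64.3, 60.3 and 65.9 in Trauma. The log2 fold change was 1.34 (standard error 0.060, limma's adjusted p = 6.1e-07), with every Trauma library above every Control library. Nes, the filament nestin, rose by less, from 5.91 to 6.99 FPKM to 7.70 to 9.95 (log2 fold change 0.49, limma's adjusted p = 0.0054). Lcn2, the iron-siderophore carrier lipocalin 2, had 0.942, 0.605, 0.461 and 0.371 FPKM in Control and 2.71, 2.56, 3.47 and 3.43 in Trauma. It had the largest log2 fold change of the 29 members, 2.24 (standard error 0.22, limma's adjusted p = 0.00012), on 15 to 161 reads per library.

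Of the receptors, Osmr, the oncostatin M receptor that pairs with gp130, had 0.322, 0.408, 0.305 and 0.375 FPKM in Control and 0.913, 0.781, 0.812 and 0.928 in Trauma. All Trauma libraries were above all Control libraries (log2 fold change 1.09, standard error 0.17, limma's adjusted p = 0.0027). S1pr3, a receptor for sphingosine 1-phosphate, rose from 1.67 to 2.50 FPKM to 4.02 to 5.28 (log2 fold change 1.20, limma's adjusted p = 0.00011), and overlaps the lncRNA Gm32834 on the other strand (0.718 FPKM). Cd109, a membrane protein that binds TGF-β1 and dampens its signal, rose from 1.36, 1.52, 1.41 and 1.67 FPKM to 2.99, 3.44, 3.39 and 3.71 (log2 fold change 1.14, limma's adjusted p = 2.7e-05). Serpina3n, a secreted protease inhibitor, rose by 0.83 on the log2 scale (limma's adjusted p = 0.0042). Tnc and Ptx3 did not pass. Tnc, the matrix protein tenascin C, had 7.96 to 10.7 FPKM in Control and 7.37 to 9.06 in Trauma (95% interval of the log2 fold change −0.31 to 0.091), and Ptx3, a secreted pattern receptor, had 6 to 35 reads per library (95% interval −0.027 to 1.54).

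Without Control 1, the library that stood apart, 12 identity genes and 7 reactivity genes were called higher in Trauma. Markers of other glia moved in the same comparison, in which 3.5% of all tested genes were called higher and 2.32% lower. Of 11 microglia markers 7 were tested and 5 rose, and their summed level was 33.9 to 38.4 FPKM in Control, 48.2 to 58.0 in Trauma, then 39.8 to 45.1 with TGF-β1. The complement genes C1qa, C1qb and C1qc, the lysosomal Cd68 and the adaptor Tyrobp were the 5, while Tmem119, P2ry12 and Aif1 were at 0 to 0.552 FPKM. Of 12 oligodendrocyte lineage markers 7 were tested and 3 rose, Cnp, Olig1 and Mbp, with a sum of 54.1 to 60.3, 69.7 to 77.3 and 66.4 to 73.5 FPKM in the 3 groups, and Pdgfra at 0.0324 to 0.152 FPKM. Of 10 progenitor and proliferation markers 8 were tested and 3 rose, Cdk1, Mki67 and Top2a, with a sum of 8.63 to 11.2, 10.8 to 11.9 and 9.77 to 11.6 FPKM. Of 8 mural and fibroblast markers 3 were tested and Acta2 rose, with a sum of 3.83 to 4.47, 6.43 to 8.29 and 9.59 to 12.0 FPKM and Lum at 0.0255 to 0.253. The 7 endothelial markers summed to 0.282 to 0.580 FPKM over the 12 libraries, and Cldn5 was at 0 to 0.135. Of 12 neuron markers 2 rose and 3 fell, and their sum was 1906 to 1966, 1687 to 1808 and 1665 to 1711 FPKM. The part of these cells in the changes of the astrocyte genes was not tested.

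**Figure D2:**
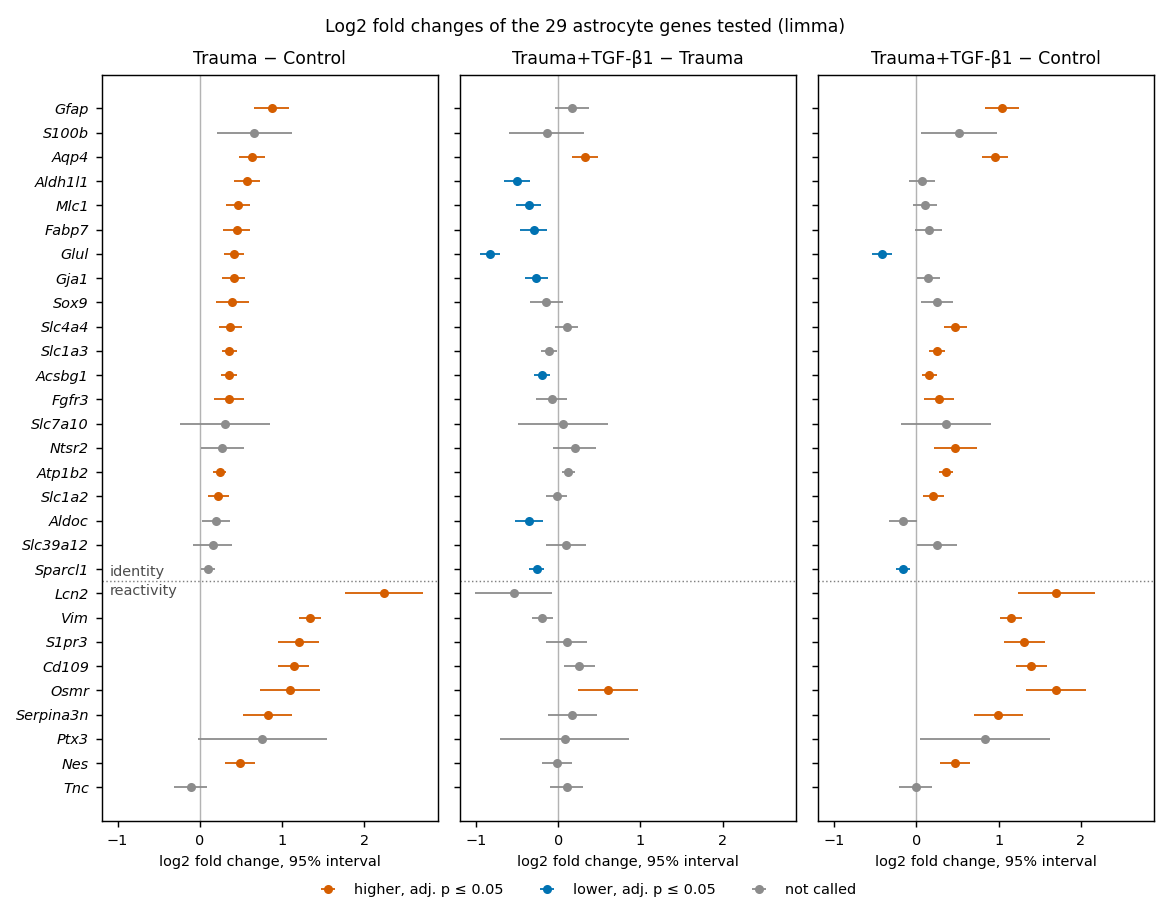
Log2 fold changes (horizontal axes) of the 20 identity and 9 reactivity genes tested, with 95% intervals, in 3 comparisons that share libraries; orange and blue mark genes higher or lower at an adjusted p of at most 0.05. In Trauma against Control the called genes are all on the higher side, and in Trauma+TGF-β1 against Trauma 8 identity genes are on the lower side and Aqp4 and Osmr on the higher side.

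Trauma+TGF-β1 was then compared with Trauma, which asks what the added TGF-β1 changed in scratched cultures. Of the 20 identity genes 8 fell and 1 rose, and of the 9 reactivity genes 1 rose and 0 fell. Among all tested genes 7.63% were called lower and 4.64% higher. For 7 identity genes every Trauma+TGF-β1 library was lower than every Trauma library and for 2 higher, for reactivity genes 2 were higher and 1 lower, and 22.3% of all genes did not overlap. The median log2 fold change was −0.13 for identity and 0.11 for reactivity genes, and 0.0052 for all genes tested. At an unadjusted p under 0.05, 2 reactivity genes were higher and 2 lower, where 13.4% of all genes were higher and 16% lower. With voom, 2 were called higher and 2 lower. Without Trauma+TGF-β1 2, 5 identity genes were called. In this comparison log2 fold changes followed the GC content of the transcripts over 14699 genes, which are not independent (Spearman's rho = −0.465). After the GC correction 1 identity gene was called higher and 8 lower, with Atp1b2 in place of Aqp4 and Slc1a3 in place of Acsbg1. For the reactivity genes the correction gave 0 higher and 1 lower, Vim in place of Osmr. The median GC content was 49.2% for the tested identity genes, 51.6% for the tested reactivity genes, 50.5% for both together and 49.6% for all tested genes. Where the relation to GC content comes from was not tested. The mitochondrial share of reads was 2.17% to 2.30% in Trauma against 2.69% to 3.23% with TGF-β1, with no overlap, and its part in this comparison was not tested.

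Glul had the largest decrease. It had 78.1, 80.3, 75.3 and 77.3 FPKM in Trauma+TGF-β1, below the 130 to 142 of Trauma and also below the 94.2 to 117 of Control. The log2 fold change from Trauma was −0.83 (standard error 0.056, limma's adjusted p = 2.6e-05). The glutamate transporters beside it did not pass: Slc1a3 had 37.7 to 41.7 FPKM (log2 fold change −0.11, 95% interval −0.21 to −0.015, limma's adjusted p = 0.11), and was called lower after the GC or length correction, at −0.17. Slc1a2 had 32.1 to 37.8 FPKM (log2 fold change −0.018, 95% interval −0.14 to 0.11).

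The metabolic genes of the identity set fell. Aldh1l1 had 10.3, 9.79, 10.6 and 9.27 FPKM, below every Trauma library and within reach of Control (log2 fold change −0.50, standard error 0.073, limma's adjusted p = 0.0043). Aldoc had 77.0, 79.1, 76.4 and 72.8 FPKM, below the 85.6 to 104 of Trauma (log2 fold change −0.36, limma's adjusted p = 0.016, and 0.052 with quantile normalization). Fabp7 had 138 to 167 FPKM against 165 to 205 in Trauma (log2 fold change −0.30, limma's adjusted p = 0.026). Its call was lost, with limma's adjusted p between 0.050 and 0.074, without Trauma 2, 3 or 4 or Trauma+TGF-β1 1, 2 or 3. It was also lost with quantile normalization, at −0.21 (limma's adjusted p = 0.11), with the length correction, at −0.18 (0.13), and with no filter (0.060). Acsbg1 fell by 0.20 on the log2 scale (limma's adjusted p = 0.018). It had a limma adjusted p of 0.056 without Trauma+TGF-β1 2, 0.052 without Trauma+TGF-β1 4, 0.071 with quantile normalization, at −0.13, and 0.28 after the GC correction, at −0.091.

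Mlc1 had 34.2, 34.2, 32.8 and 34.6 FPKM, below the 40.5 to 46.3 of Trauma (log2 fold change −0.36, limma's adjusted p = 0.011). Gja1 had 5.60 to 6.37 FPKM, all below Trauma (log2 fold change −0.27, limma's adjusted p = 0.022). Its adjusted p in limma was between 0.054 and 0.065 without Trauma 1 or 4 or Trauma+TGF-β1 2 or 4. Sparcl1 had 174, 173, 174 and 160 FPKM against 200 to 214 in Trauma (log2 fold change −0.26, limma's adjusted p = 0.0051). These genes have different roles, an endfoot protein, a gap junction channel and a secreted matrix protein.

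The other identity genes were not called lower. Aqp4 had 20.6, 24.2, 19.5 and 21.1 FPKM, above every Trauma library (log2 fold change 0.32, standard error 0.073, limma's adjusted p = 0.018). Without Trauma+TGF-β1 2 its adjusted p in limma was 0.051, and after the GC correction 0.060. Gfap had 91.7, 99.4, 99.1 and 98.2 FPKM, at the upper end of Trauma, and did not pass (log2 fold change 0.17, 95% interval −0.043 to 0.38). Slc4a4 (log2 fold change 0.11), Atp1b2 (0.12, limma's adjusted p = 0.053), Ntsr2 (0.20), Slc39a12 (0.094), Slc7a10 (0.060), Sox9 (−0.14), Fgfr3 (−0.080) and S100b (−0.14) did not pass either. Atp1b2 was called higher after the GC correction, at 0.17 (limma's adjusted p = 0.030). Fgfr3 turned to 0.042 and Slc39a12 to −0.0010 with the same correction.

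Among the reactivity genes, Osmr rose again, to 1.57, 1.41, 1.12 and 1.33 FPKM from 0.781 to 0.928 in Trauma, with no overlap. The log2 fold change was 0.60 (standard error 0.17, limma's adjusted p = 0.038). The call was lost, with limma's adjusted p between 0.068 and 0.10, without any 1 of the 4 Trauma libraries or without Trauma+TGF-β1 1, 2 or 4, and it was 0.070 after the GC correction, 0.084 after the length correction and 0.075 with no filter. Cd109 had 4.00, 4.19, 3.80 and 4.19 FPKM, above the 2.99 to 3.71 of Trauma, and did not pass (log2 fold change 0.26, 95% interval 0.067 to 0.44, limma's adjusted p = 0.073), but was called higher with voom (voom's adjusted p = 0.032). Lcn2 had 1.85, 2.42, 1.98 and 1.95 FPKM, below the 2.56 to 3.47 of Trauma, and did not pass either (log2 fold change −0.54, 95% interval −1.01 to −0.069, limma's adjusted p = 0.12). It was called lower with voom, at −0.56 (adjusted p = 0.023), in the fit of 2 groups (limma's adjusted p = 0.026) and with a pseudocount of 1, at −0.40 (0.046). Vim was at 57.6, 56.2, 49.1 and 54.1 FPKM (log2 fold change −0.19, 95% interval −0.32 to −0.060, limma's adjusted p = 0.057), and was called lower after the GC correction, at −0.24 (limma's adjusted p = 0.030), and with voom, at −0.20 (voom's adjusted p = 0.014). Nes (−0.018), Serpina3n (0.17), S1pr3 (0.11), Tnc (0.11) and Ptx3 (0.078) had log2 fold changes that did not pass. Of the other cell types, C1qc of the microglia list and Cnp of the oligodendrocyte list fell, and Acta2 rose. Of the 12 neuron markers Map2 and Snap25 rose and Tubb3 and Slc17a7 fell. In this comparison 4.64% of all tested genes were called higher and 7.63% lower.

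**Figure D3:**
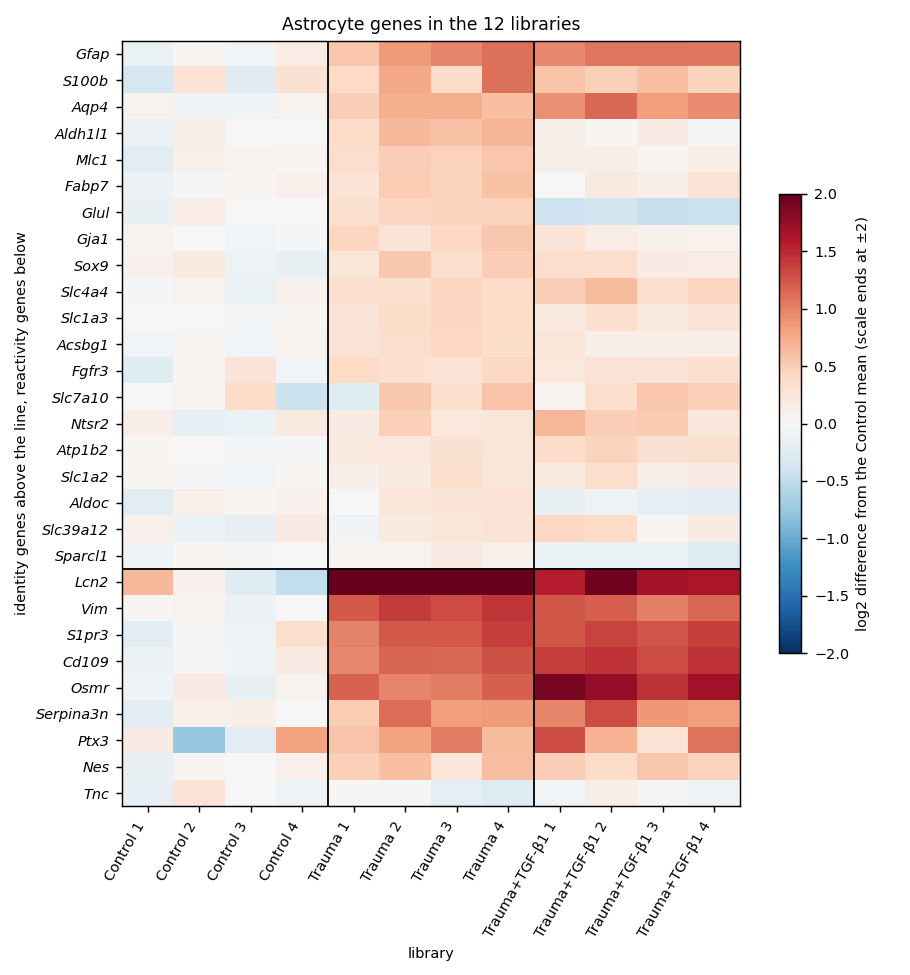
Log2 difference of each tested gene (rows) in each of the 12 libraries (columns) from the mean of the Control libraries, from blue (lower) through white to red (higher), with the colour scale ending at ±2. The reactivity genes below the line are red in both scratched groups except Tnc, and Glul in the identity genes above it is red in Trauma and blue in Trauma+TGF-β1.

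Trauma+TGF-β1 was last compared with Control, which gives where the genes stood after both treatments. Of the 20 identity genes 9 rose and 2 fell, and of the 9 reactivity genes 7 rose and 0 fell (8 higher and 0 lower at an unadjusted p under 0.05, where 14.3% of all genes were higher and 16.8% lower, and 7 and 0 with voom). Among all tested genes 6.85% were called higher and 9.46% lower. The groups did not overlap for 12 identity genes, 10 higher and 2 lower, and for 7 reactivity genes, all higher, against 18% of all genes. The median log2 fold change was 0.25 for identity and 1.15 for reactivity genes, and 0.0031 for all genes tested. Without Control 2 or 3 or Trauma+TGF-β1 1, 2 or 4, 7 identity genes were called, and the 7 reactivity genes were called without any 1 library. Log2 fold changes followed GC content here too (Spearman's rho = −0.359), and hardly in Trauma against Control (0.088). After the GC correction, Trauma+TGF-β1 against Control gave 8 identity genes higher and 2 lower, and 7 reactivity genes higher. This comparison shares its libraries with the other two, so the values below stand beside theirs and are not independent of them.

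Gfap was 1.04 higher on the log2 scale than in Control (standard error 0.097, limma's adjusted p = 5.9e-05) and Aqp4 0.96 higher (standard error 0.073, limma's adjusted p = 1.4e-05). Slc4a4 had 21.9, 24.1, 19.8 and 21.0 FPKM against 14.3 to 16.7 in Control (log2 fold change 0.48, limma's adjusted p = 0.00073). Atp1b2 rose by 0.36 (limma's adjusted p = 0.00015) and Slc1a3 by 0.25 (limma's adjusted p = 0.0038) on the log2 scale. The other 4 that rose were close to the threshold. Ntsr2 had 3.58, 3.16, 3.23 and 2.60 FPKM against 1.96 to 2.56 (log2 fold change 0.47, limma's adjusted p = 0.019, and 0.051 to 0.059 without Control 2 or 3 or Trauma+TGF-β1 1 or 2). Slc1a2 had a log2 fold change of 0.21 (limma's adjusted p = 0.031, and 0.051 to 0.086 without Control 2 or 3 or Trauma+TGF-β1 1, 2 or 4). It was lost after the length correction, at 0.12 (limma's adjusted p = 0.14), and the GC correction, at 0.15 (0.073), with no filter (0.064) and with eBayes without a trend (0.053). Acsbg1 had a log2 fold change of 0.16 (limma's adjusted p = 0.029, and 0.054 to 0.085 without Control 3 or Trauma+TGF-β1 1, 2 or 4), and was lost with no filter, in the fit of 2 groups and with eBayes without a trend (0.055 to 0.062). Fgfr3 had 0.27 (limma's adjusted p = 0.049), and stayed past the threshold only without Control 3 among the 12 libraries, with limma's adjusted p of up to 0.11. It was also lost, at 0.052 to 0.10, with no filter, FPKM as deposited, quantile normalization, the fit of 2 groups, eBayes without a trend and the length correction.

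Glul was the 1 identity gene that was above Control in Trauma and below Control with TGF-β1, both past the threshold. From Control its log2 fold change was −0.41 (standard error 0.056, limma's adjusted p = 0.00078), with all Trauma+TGF-β1 libraries below all Control libraries. Sparcl1 also fell, by 0.16 on the log2 scale (limma's adjusted p = 0.018, and 0.050 to 0.055, above the threshold, without Control 2 or 3 or Trauma+TGF-β1 4). The log2 fold change of Sparcl1 was −0.053 with quantile normalization (limma's adjusted p = 0.41) and −0.12 with the length correction (0.056). Aldh1l1, Mlc1, Gja1 and Fabp7, which had risen in Trauma, had log2 fold changes from Control of 0.072, 0.11, 0.14 and 0.15 that did not pass. The 95% interval of Aldh1l1 was −0.086 to 0.23. Aldoc (−0.16), Sox9 (0.25), Slc39a12 (0.25), S100b (0.52) and Slc7a10 (0.36) did not pass. Without Control 1, the library that stood apart, Aldoc was called lower, at −0.24 (limma's adjusted p = 0.019). Sox9 was called higher after the length correction with the replicate block, at 0.27 (limma's adjusted p = 0.047).

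The 7 reactivity genes that had risen in Trauma were also above Control here. Lcn2 and Osmr had a log2 fold change of 1.70 each (limma's adjusted p = 0.00051 and 9.6e-05), Cd109 of 1.40, S1pr3 of 1.31, Vim of 1.15, Serpina3n of 1.00 and Nes of 0.47. Osmr and Cd109 were lowest in Control, higher in Trauma and highest in Trauma+TGF-β1 with no overlap between neighbouring groups, but of the 2 steps to Trauma+TGF-β1 only that of Osmr passed. Lcn2 was lowest in Control, then Trauma+TGF-β1, then Trauma, with the latter step not past the threshold. Tnc had 8.39 to 9.68 FPKM, within the Control range (log2 fold change −0.0062, 95% interval −0.21 to 0.20). Ptx3 had a log2 fold change of 0.83 (95% interval 0.050 to 1.62, limma's adjusted p = 0.14).

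Further astrocyte genes outside the 32 were counted from a separate list of 34, of which 32 were tested. In Trauma against Control 14 rose and 0 fell (median log2 fold change 0.23), where 3.5% of all tested genes were called higher and 2.32% lower. They included Id3, a repressor downstream of BMP and TGF-β signals (1.09), Gli3, a transcription factor of Hedgehog signals (0.90), Mt3, a metallothionein (0.74), and Megf10, a receptor for engulfment (0.51). In Trauma+TGF-β1 against Trauma 4 rose and 10 fell (median −0.098), where 4.64% of all tested genes were called higher and 7.63% lower. Mfge8, a bridge to dying cells, fell by 0.63, Id3 by 0.61, Sox2, a progenitor transcription factor, by 0.53 and Id4 by 0.49 on the log2 scale. Ppp1r3c, a glycogen regulator named after its values were seen, rose by 0.46. Against Control 14 rose and 3 fell (median 0.19), where 6.85% of all tested genes were called higher and 9.46% lower. The potassium channel gene Kcnj10 had 53.1 to 57.0 FPKM in Control, 58.2 to 64.5 in Trauma, then 77.0 to 85.9 with TGF-β1, and rose in each comparison (log2 fold changes 0.17, 0.42 and 0.59). It was named for that after its values were seen.

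Of 30 further genes of reactive astrocytes 29 were in the table and 13 were tested. In Trauma against Control Timp1, an inhibitor of matrix proteases, rose by 1.34 and S100a10, an annexin partner, by 0.51 on the log2 scale. Synm, a filament protein, fell by 0.23, where 3.5% of all tested genes were called higher and 2.32% lower. In Trauma+TGF-β1 against Trauma Hspb1, a small heat shock protein, rose by 1.37 and H2-D1, a class I antigen, fell by 0.36. With 4.64% of all tested genes called higher and 7.63% lower, 1 call each way in 13 does not set this list apart. Against Control 6 rose and 1 fell, where 6.85% of all tested genes were called higher and 9.46% lower. Hspb1 was at 2.49, Timp1 at 1.56, the hyaluronan receptor Cd44 at 1.06 and Tm4sf1, a membrane protein, at 0.96. Hspb1 rests on 4 to 49 reads and Timp1 on 4 to 42 reads per library. The complement gene C3 had 0.198 to 0.635 FPKM and Gbp2, an interferon-induced GTPase, 0.149 to 0.540 FPKM, both under the limit for testing.

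Of 26 genes of the signals upstream of reactivity 25 were in the table and 17 were tested. In Trauma against Control 2 rose and 1 fell, where 3.5% of all tested genes were called higher and 2.32% lower. In Trauma+TGF-β1 against Trauma 2 rose and 0 fell, beside 4.64% and 7.63% of all genes. From Control to Trauma+TGF-β1 3 rose and 1 fell, beside 6.85% and 9.46%. Stat3 had 6.86, 6.06, 6.10 and 6.31 FPKM in Control, 8.22, 7.89, 7.08 and 7.95 in Trauma and 9.03, 8.55, 8.52 and 8.22 in Trauma+TGF-β1. It rose from Control in both (log2 fold changes 0.30 and 0.44, limma's adjusted p = 0.011 and 0.00064), with no overlap. Notch1 rose in each comparison, by 0.66 from Control to Trauma, 0.32 from Trauma to Trauma+TGF-β1 and 0.98 from Control to Trauma+TGF-β1 on the log2 scale. Smad2 fell by 0.30 in Trauma, Bmpr1a, a BMP receptor, rose by 0.21 with TGF-β1 against Trauma and by 0.31 against Control, and Smad7, the inhibitor that TGF-β induces, fell by 0.53 against Control. The ligands were barely read: Osm, for Osmr, had 0 to 3 reads, Il6 0 to 4 and Tnf 0 to 6 reads per library.

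**Figure D4:**
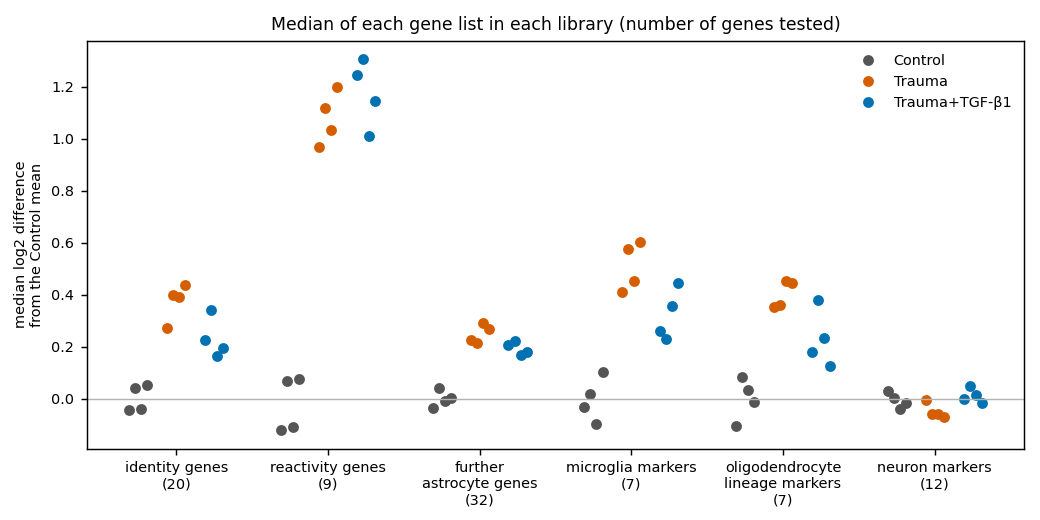
Median log2 difference from the Control mean (vertical axis) over the tested genes of 6 lists, for each of the 12 libraries (points, coloured by group, with the number of genes tested under each list). Reactivity genes lie between 0.97 and 1.31 in the scratched libraries, identity genes between 0.16 and 0.44, and neuron markers between −0.070 and 0.050; microglia and oligodendrocyte markers are above Control in both scratched groups.

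Library by library, the median log2 difference from the Control mean was 0.27 to 0.44 for identity genes and 0.97 to 1.20 for reactivity genes in Trauma. In Trauma+TGF-β1 it was 0.16 to 0.34 for identity and 1.01 to 1.31 for reactivity genes, as in the plot of list medians. Summed over the 21 genes, identity transcripts came to 783 to 866 FPKM in Control, 969 to 1102 in Trauma, against 886 to 930 with TGF-β1, with no overlap between the groups. Sparcl1, Fabp7 and Glul, averaging 189, 159 and 107 FPKM, weigh most in that sum. They were among the 8 identity genes called lower with TGF-β1 against Trauma, while Aqp4 was called higher. Summed over the 11, reactivity transcripts came to 46.2 to 51.7, 92.0 to 103 and 85.5 to 96.3 FPKM, where Vim is the largest part.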

How the data were processed

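The deposited table gives FPKM per gene, which the authors calculated from paired-end reads of poly(A) libraries that were aligned with HISAT2 2.0.5 to mm10 (GRCm38), as given in the submitters' processing notes, and counted per gene with featureCounts; it also holds gene lengths in base pairs. The methods describe 6 samples, and the table holds 12. FPKM multiplied by length were whole multiples of 1 read (within 0.02) for 100% of genes in each library, which gave the reads quoted. Median-of-ratios factors over all genes were 1.0062 in each library, so the deposited values are already scaled that way. Factors over tested genes, 0.999 to 1.01, were divided out, 0.1 was added, and the 15016 genes averaging at least 0.5 FPKM were fitted on the log2 scale with limma 3.58.1 in R 4.3.3 (eBayes with a trend, 1 fit of the 12 libraries, no block, Benjamini-Hochberg adjustment over all tested genes of a comparison, threshold 0.05). Fold changes are on that scale, which understates those of low genes. The fit was tested on simulated data. Tables and plots used Python 3.11.15, pandas 2.3.3, numpy 2.4.6 and matplotlib 3.10.9.

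All 32 members are accounted for; of the other lists, the genes past the threshold were counted and up to 4 with the largest log2 fold change named, and genes outside that rule were chosen after their values were seen. The members and lists were chosen with earlier results of these data known. Of the listed names, 2 (Chi3l1 and Endrb) were not matched in the table. The settings varied were the pseudocount (1 or 0.01), the filter (none, or 1 FPKM), the scaling (quantile normalization, or the deposited FPKM untouched), the libraries fitted (2 groups), the eBayes step (no trend, or robust), a replicate block, loess corrections (span 0.3) for length or GC with and without it, voom in place of log2 FPKM, dropping each library, and, chosen after seeing the data, scaling to reads on genes. The DESeq2 calls of the authors were not repeated.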

Additional observations from a re-analysis of the deposited data

Results flagged for a closer look

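In 5 of 87 groups of 4 libraries, 1 library stood off from the other 3 by more than Dixon's 95% critical value, which chance gives in about 1 in 20 groups. The ratio is the gap to the nearest library over the range of the group. Gfap was lowest in Trauma+TGF-β1 1 (91.7 FPKM, ratio 0.85). Aldoc was lowest in Trauma 1 (85.6 FPKM, 0.832). Mlc1 was lowest in Control 1 (27.0 FPKM, 0.857), the library that stood apart on the principal components. Acsbg1 was highest in Trauma+TGF-β1 1 (42.5 FPKM, 0.911). Sparcl1 was lowest in Trauma+TGF-β1 4 (159.5 FPKM, 0.906). The causes were not tested.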

How the results depend on the processing

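Over 28 alternatives, the 49 calls of members gave 1369 refits, of which 1252 stayed past the threshold in the same direction, 117 no longer passed and 0 turned; 35 of the 49 were lost under none of the alternatives. Counts of called identity genes stayed within 1.5 times those reported, except without 1 library: leaving out each library in turn gave 11 to 14 in Trauma against Control (14 with all libraries), 5 to 10 in Trauma+TGF-β1 against Trauma (9) and 7 to 11 in Trauma+TGF-β1 against Control (11). The reactivity genes stayed within 1.5 times of 7 in both comparisons with Control. In Trauma+TGF-β1 against Trauma, where 1 reactivity gene was called, there were 2 with a pseudocount of 1 and in the fit of 2 groups, 0 without a filter, with a filter at 1 FPKM (which leaves Osmr out) and with the length correction, with or without the replicate block, 4 with voom, and 0 to 2 with each library left out. With the GC correction the count stayed at 1, but the gene was Vim (lower) in place of Osmr. The cause was not tested.

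The replicate number was not shown to pair the libraries. Deviations of same-numbered libraries correlated at −0.0088 to 0.076 over 12 pairs, and those of other pairs at −0.091 to 0.073. On the third principal component, libraries 1 and 2 of each group lay above 3 and 4. They were at 5.92 and 8.63 against −21.6 and −19.4 in Control. In Trauma they were at 15.4 and 28.9 against 5.28 and −0.283, and in Trauma+TGF-β1 at 15.9 and 13.15 against −22.2 and −29.9. What the replicate number stands for was not tested. With the number as a block, 12 identity and 7 reactivity genes were called in Trauma against Control, 9 and 1 in Trauma+TGF-β1 against Trauma, where the 1 is Vim (lower) in place of Osmr, and 9 and 7 in Trauma+TGF-β1 against Control, where Acsbg1, Fgfr3 and Slc1a2 were lost and Fabp7 was called higher (limma's adjusted p = 0.020, and 0.0051 with the length correction as well); the block with the length correction gave 0 reactivity genes in Trauma+TGF-β1 against Trauma.

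Of results that did not pass, 26 refits turned. In Trauma+TGF-β1 against Trauma, quantile normalization gave a log2 fold change of 0.049 for Slc1a2 and 0.0071 for Nes, and the GC correction, with or without the block, gave 0.042 for Fgfr3, −0.0010 for Slc39a12 and 0.089 for Nes. Leaving out 1 library gave ranges of −0.068 to 0.023 for Slc1a2, −0.24 to 0.0077 for S100b, −0.12 to 0.16 for Slc7a10, −0.098 to 0.024 for Nes and −0.077 to 0.27 for Ptx3. For Tnc in Trauma+TGF-β1 against Control the log2 fold change was 0.022 scaled to reads on genes and with quantile normalization, 0.027 with the GC correction with or without the block, and −0.061 to 0.077 with 1 library left out. Reads limit the low genes: S100b, Slc7a10, Ptx3 and Lcn2 had 6 to 161 reads per library.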
